A study of Mus musculus with 10 samples.

Results

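Genes of the lysosome and the phagocyte oxidase were followed in microglia, the resident macrophages of the brain: the cathepsin genes Ctss (NM_021281.2) and Ctsc (NM_009982.2), the sialomucin gene Cd164 (NM_016898.2), and the oxidase subunit genes Ncf4 (NM_008677.2) and Cybb (NM_007807.2). They are 5 of the 545 endogenous genes of the mouse immune panel, an nCounter assay that counts a fluorescent barcode for each target molecule bound, and they were picked out by symbol. The 5 were selected on measured values, since their BDS and control counts in these same lanes were known when they were grouped, so every difference between BDS and control below describes them and is not a test. Of the 5 genes, 4 exceeded the background limit in all 10 lanes. Cybb exceeded it in 0 lanes, so the oxidase was represented by Ncf4 alone.

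The microglia came from the hippocampus of 10 male Balbc pups at postnatal day 14, 5 exposed to brief daily separation (BDS) and 5 controls, each from a different litter and each read in 1 lane. BDS pups, numbered 11, 17, 24, 38 and 59, were kept from the dam for 15 min a day in a schedule that the labels set at postnatal days 1 to 21, so it was still running at collection. Control pups were numbered 1, 18, 40, 52 and 69. Cells were enriched on Percoll and sorted by FACS, with gates not given in the sources used here, and 2 ng of RNA per pup was amplified as cDNA.

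Cathepsins are proteases of endosomes and lysosomes, where phagocytes break down what they take up. Cathepsin S, encoded by Ctss, cuts the invariant chain away from MHC class II and works at neutral as well as acid pH. Cathepsin C, encoded by Ctsc, removes dipeptides and activates the serine proteases of immune cell granules. Cd164 encodes endolyn, a mucin-like membrane protein that travels between the cell surface and lysosomes. The phagocyte oxidase makes superoxide: Cybb encodes its catalytic membrane subunit gp91phox, and Ncf4 encodes p40phox, a cytosolic subunit that binds a phosphoinositide of the phagosome membrane.

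The promoter windows of the cathepsin genes and Cd164, whose products share an organelle, are shown as a description. A link between these sequences and the counts was not tested. RefSeq promoters (GRCm38.p6, 250 bases before to 50 after the gene start) matched 4 of the 5 genes, Ncf4 being the unmatched gene. The start each window uses is the outermost start of the RefSeq gene for Ctss and Cd164, lies 61 bases inside the gene for Ctsc, and lies 18442 bases inside the gene for Cybb, whose window is therefore not read. Capitals mark matches on either strand to GAGGAAGT (a core recognised by PU.1, the myeloid transcription factor), CACGTG (the E-box inside the lysosomal CLEAR element) or TATAAA (the TATA box). The windows lie at chr3:95526536-95526835 (plus strand), chr7:88277835-88278134 (plus strand) and chr10:41519250-41519549 (plus strand).
Ctss: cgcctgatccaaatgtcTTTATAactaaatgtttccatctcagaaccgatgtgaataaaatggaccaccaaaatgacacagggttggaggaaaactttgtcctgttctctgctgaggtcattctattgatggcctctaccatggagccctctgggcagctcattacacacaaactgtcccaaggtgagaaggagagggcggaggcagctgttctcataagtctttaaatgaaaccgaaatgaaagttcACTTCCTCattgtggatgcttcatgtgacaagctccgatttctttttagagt
Ctsc: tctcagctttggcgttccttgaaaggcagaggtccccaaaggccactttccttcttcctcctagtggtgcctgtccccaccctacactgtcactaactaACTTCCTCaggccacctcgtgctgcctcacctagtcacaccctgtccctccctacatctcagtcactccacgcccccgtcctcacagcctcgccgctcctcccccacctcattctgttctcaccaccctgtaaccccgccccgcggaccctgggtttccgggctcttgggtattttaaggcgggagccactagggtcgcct
Cd164: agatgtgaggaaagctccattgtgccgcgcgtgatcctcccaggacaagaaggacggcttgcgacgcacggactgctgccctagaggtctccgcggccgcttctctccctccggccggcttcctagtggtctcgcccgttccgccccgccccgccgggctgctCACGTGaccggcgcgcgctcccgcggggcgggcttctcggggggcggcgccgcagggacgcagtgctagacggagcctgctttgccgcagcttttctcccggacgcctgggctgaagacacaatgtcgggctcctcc
Ctss held the reverse complement of GAGGAAGT across its start, beginning at position -2, and Ctsc held it at -151, which is -90 from the outermost start of that gene. This motif was in 3.2% of the 32851 RefSeq promoter windows of the same length. Cd164 held CACGTG at -87, a motif of 7.15% of windows. Ctss also held TATAAA in reverse at -233, a motif of 13.6% of windows. The motifs do not overlap one another in these windows, and a match is a description of the sequence only.

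The lanes differed in depth. Endogenous counts ran between 341679 and 968930 in BDS lanes and between 76237 and 802033 in control lanes. Lane depth, taken as the geometric mean of 6 housekeeping genes, was higher in BDS lanes by 1.23 on the log2 scale (exact two-sided permutation p = 0.0873 over all assignments, n = 5 each). The shallowest lanes were control 52 and control 69. All 7 microglia markers on the panel that were listed for this check were above background, and took between 23.1% and 26.3% of endogenous counts in BDS lanes and between 22.8% and 29.4% in control lanes. Neutrophil markers, of which 1 of 5 (Csf3r) was above background in at least 4 lanes, took 0.238% to 0.422% in BDS lanes and 0.350% to 0.888% in control lanes. T cell markers, with 0 of 5 above, took 0.00713% to 0.0126% in BDS lanes and 0.0102% to 0.0512% in control lanes. NK cell markers, with 2 of 4 above, took 0.0204% to 0.0296% in BDS lanes and 0.0167% to 0.0281% in control lanes. The lymphocyte and granulocyte genes Cd3e, Cd3d, Ms4a1 and Camp were at background in every lane. The B cell receptor gene Cd79b was above the limit in every lane and took 0.0345% to 0.0516% in BDS lanes and 0.0307% to 0.0616% in control lanes. The monocyte receptor gene Ccr2 was above it in 5 BDS lanes and 4 control lanes and took 0.0214% to 0.0307% in BDS lanes and 0.0123% to 0.0212% in control lanes. Endothelial markers were above in 3 of 3 and took 0.212% to 0.259% in BDS lanes against 0.184% to 0.394% in control lanes. The part of other cells in the counts below was not tested. In bulk RNA, fewer cells of a type and less RNA per cell cannot be told apart.

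Ctss and Cd164 were among the most abundant barcodes in every lane. Ctss gave between 2692 and 69433 raw counts, which placed it 2nd to 6th of the 545 genes within a lane, and Cd164 gave 2010 to 62363 raw counts, 2nd to 7th. In BDS lanes Ctss took 6.43% ± 0.760 of endogenous counts and Cd164 5.80% ± 0.626, against 4.72% ± 0.935 and 4.17% ± 1.08 in control lanes (SD, n = 5 each). Ctsc and Ncf4 were far down the list: Ctsc took 0.110% ± 0.0191 in BDS lanes and 0.111% ± 0.0341 in control lanes, and Ncf4 0.0992% ± 0.0168 in BDS lanes and 0.0556% ± 0.0167 in control lanes. Probes differ in how well they capture and amplify their target, so these places rank barcodes and not transcript levels. Ctss and Cd164 stood at least 110.3 and 82.3 times above the background limit of their lane (the mean of 8 negative control probes plus 2 SD). The smallest margins of Ctsc and Ncf4 were 3.11 and 2.13 times, both in control 52.

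Normalized counts, in which each raw count is scaled to the housekeeping mean of its lane and set back to the average lane, are used for the pups' values that follow. Ctss stood at 26268, 27302, 25758, 35959 and 26733 in BDS pups 11, 17, 24, 38 and 59, against 20058, 18892, 26824, 13729 and 22636 in control pups 1, 18, 40, 52 and 69. The groups overlapped through control 40, which lay inside the BDS range, while the other 4 control pups were below every BDS pup. BDS 38 stood apart at the top and control 52 at the bottom. The means were 28404 ± 4262 in BDS pups and 20428 ± 4826 in control pups (SD, n = 5 each). The log2 fold change was 0.48 ± 0.18 (SE, from edgeR's fit across all tested genes). Without BDS 38 it was 0.38 and without control 52 it was 0.36.

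Cd164 stood at 20475, 28657, 26859, 25909.5 and 25934 in BDS pups 11, 17, 24, 38 and 59, against 16726, 19358, 24335, 10251 and 19579.9 in control pups 1, 18, 40, 52 and 69. Here 4 BDS pups were above every control pup, and BDS 11 lay below control 40. The means were 25567 ± 3058 in BDS pups and 18050.1 ± 5151 in control pups (SD, n = 5 each), with 0.50 ± 0.20 as the log2 fold change (SE). Control 52 was again lowest, and the value was 0.35 without it.

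Ctsc, the other cathepsin gene, did not follow Ctss. Its values were 391, 403, 566, 489 and 574 in BDS pups 11, 17, 24, 38 and 59, against 389, 504, 715, 388 and 372 in control pups 1, 18, 40, 52 and 69. All BDS values lay inside the control range, and the highest value of all was that of control 40. The means were 485 ± 86.5 in BDS pups and 473 ± 145 in control pups (SD, n = 5 each), with 0.024 ± 0.22 as the log2 fold change (SE). The sign of that value turned with the scaling, as it was -0.10 with TMM factors, -0.017 with total endogenous counts and -0.14 without Sdha among the housekeeping genes.

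Ncf4 had the largest fold change of the 4 detected genes. It stood at 309.7, 477, 380.5, 550.01 and 486 in BDS pups 11, 17, 24, 38 and 59, against 129, 196, 305, 265 and 304 in control pups 1, 18, 40, 52 and 69. The groups did not overlap, but BDS 11 and control 40 nearly met. Means of 440.5 ± 95.0 in BDS pups and 240.0 ± 76.4 in control pups (SD, n = 5 each) gave a log2 fold change of 0.89 ± 0.25 (SE). The gap depended on the scaling: in the authors' deposited scores BDS 11 had 427, against 440 in control 52 and 468 in control 69, so the groups overlapped there.

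**Figure D1:**
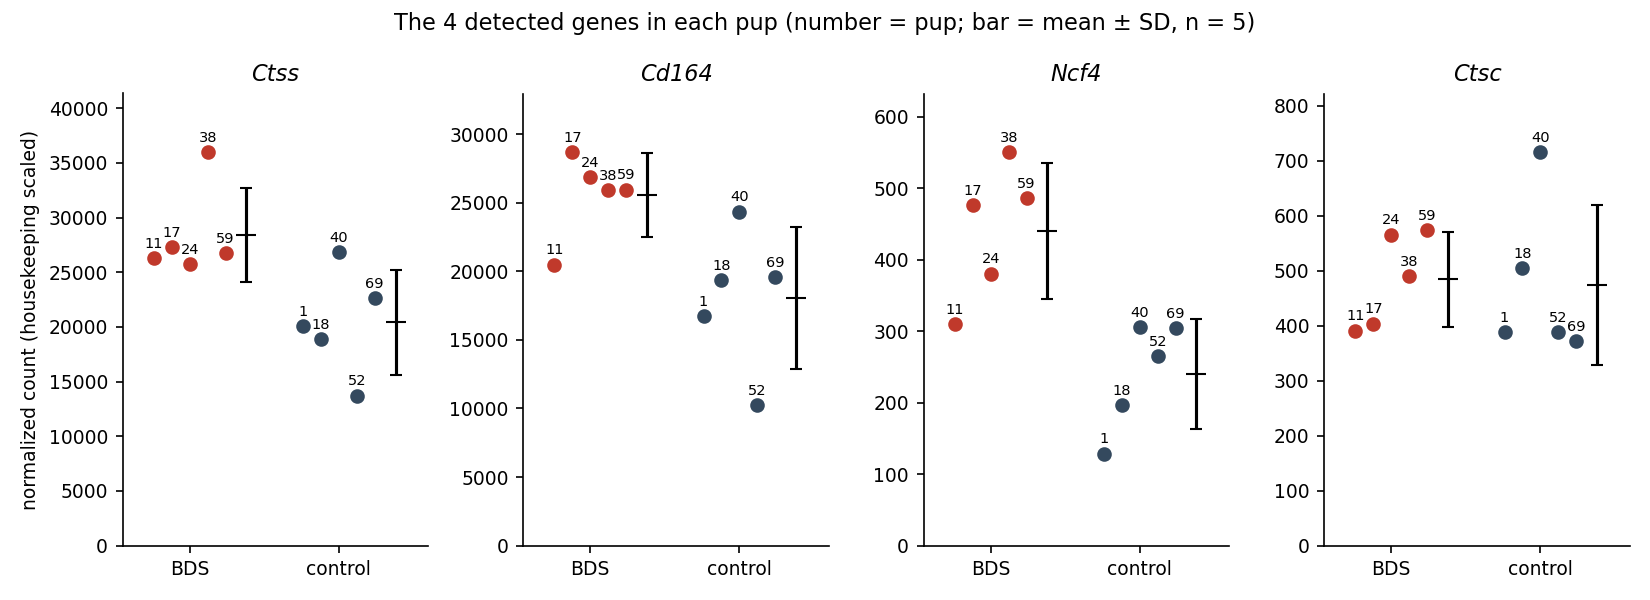
Normalized counts (y axis, from 0, a separate scale for each gene) of Ctss, Cd164, Ncf4 and Ctsc in 5 BDS pups (red, left) and 5 control pups (dark blue, right). Each point is 1 pup with its number, and the bar beside each group is the mean ± SD; BDS pups lie higher for Ncf4 without overlap, higher with overlap for Ctss and Cd164, and inside the control range for Ctsc.

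Across all 283 genes that exceeded the limit in at least 4 lanes, edgeR's quasi-likelihood test called 0 genes at an adjusted p of 0.05 (0%), the 4 detected genes included. At an unadjusted p under 0.05, 3 of the 4 (Ctss, Cd164 and Ncf4) were among the genes higher in BDS, where 19.4% of the 283 genes were. DESeq2 with the same scaling called Ncf4 alone of the 4 at an adjusted p of 0.05 on the higher side, where it called 7.07% of genes. Ncf4 was also the 1 gene of the 4 whose groups did not overlap with BDS higher, against 3.53% of the 283 genes. Because the genes were picked with this contrast known, these counts are not read further. The median log2 fold change over the 283 genes was 0.09, with 158 genes above 0 and 125 below.

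In the authors' deposited table the ratio of BDS to control means was 1.23 for Ctss, 1.26 for Cd164, 1.61 for Ncf4 and 0.91 for Ctsc. The ratios of the means above were 1.39 for Ctss, 1.42 for Cd164, 1.84 for Ncf4 and 1.02 for Ctsc. Sdha, a gene of mitochondrial respiration used in the scaling here, had 227 ± 35.0 normalized counts in BDS pups and 451 ± 157 in control pups (SD, n = 5 each). Without it the log2 fold changes were 0.30 for Ctss, 0.33 for Cd164, 0.70 for Ncf4 and -0.14 for Ctsc. The deposited scores were those of the 5 remaining housekeeping genes: over the 28 genes with at least 500 raw counts in every lane, the median ratio of score to raw count scaled without Sdha was the same in every lane to within 4.55e-05 on the log2 scale, against a range of 0.38 with Sdha kept. Leaving Sdha out of the scaling thus closed the gap between both sets of ratios. Ncf4 was first and Ctsc last under every setting in the plot of fold changes, where Ctss and Cd164 differed by less than their SE. Cd164 was above Ctss under every scaling there, but below it with depth as a covariate and without control 52 and 69.

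**Figure D2:**
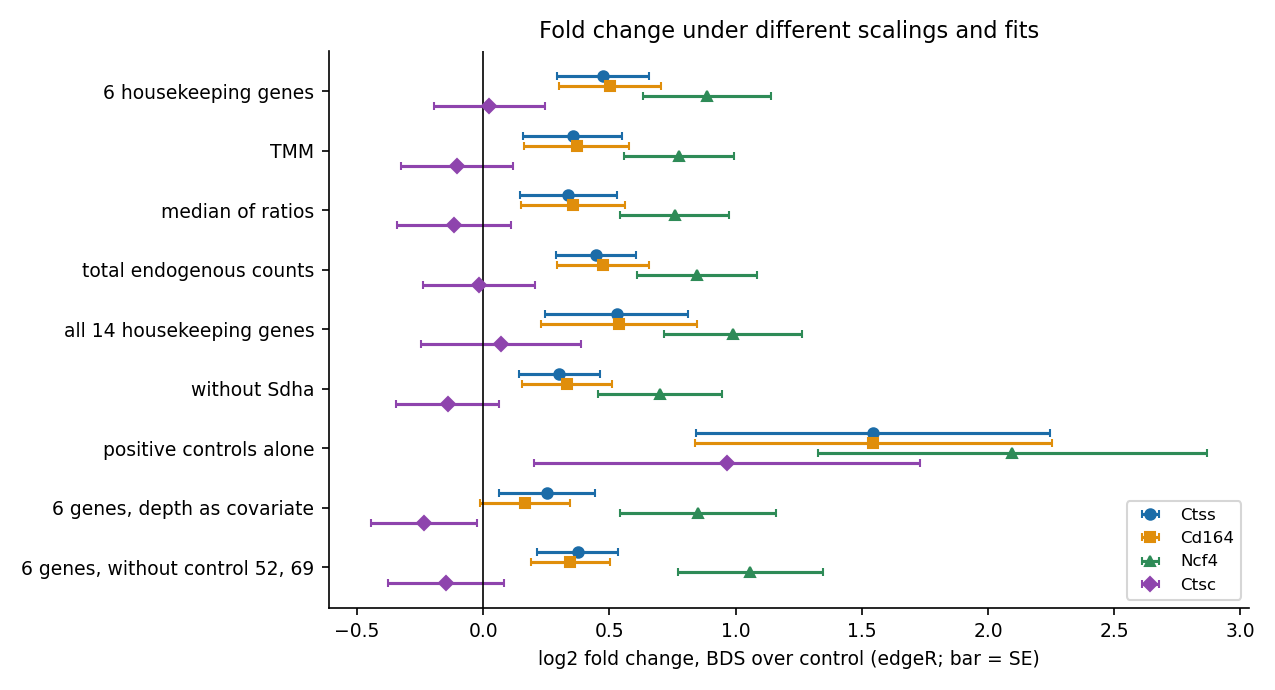
The log2 fold change, BDS over control, on the x axis for Ctss (circles), Cd164 (squares), Ncf4 (triangles) and Ctsc (diamonds) under 9 settings down the page, with bars of 1 SE from edgeR. Ctsc lies on both sides of 0, and scaling to the positive controls alone, which leaves lane depth in the values, moves all 4 genes up to between 0.97 and 2.10.

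Depth was higher on average in BDS lanes, and the groups overlapped. Pups of like depth were therefore set side by side, a choice made after the values were seen. BDS 11 had a housekeeping mean of 477 and control 1 one of 461. At that depth BDS 11 had 26268 for Ctss, 20475 for Cd164, 309.7 for Ncf4 and 391 for Ctsc, against 20058, 16726, 129 and 389 for the same genes in control 1. So Ctss, Cd164 and Ncf4 were higher in BDS 11, and Ctsc differed little. Among deep lanes, control 40 (1060.3) lay between BDS 24 (997) and BDS 38 (1113). There BDS 24 and BDS 38 had 380.5 and 550.01 for Ncf4 against 305 in control 40, and 566 and 489 for Ctsc against 715. For Ctss they had 25758 and 35959 against 26824, on both sides of the control pup, and for Cd164 26859 and 25909.5 against 24335. These are single pups, with no error of their own.

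Lane depth was also added as a covariate in the edgeR fit. It is the same housekeeping mean that scaled the lanes, and not a separate measure. In that fit Ncf4 kept nearly its full size, at 0.85 ± 0.31 (SE). The values of Ctss and Cd164 dropped to 0.25 ± 0.19 and 0.17 ± 0.18, and Ctsc was at -0.23 ± 0.21. Leaving out control 52 and 69, the shallowest lanes, gave 0.37 for Ctss, 0.34 for Cd164, 1.06 for Ncf4 and -0.15 for Ctsc. What part of the Ctss and Cd164 differences goes with depth and what part with the groups cannot be told apart beyond these values.

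**Figure D3:**
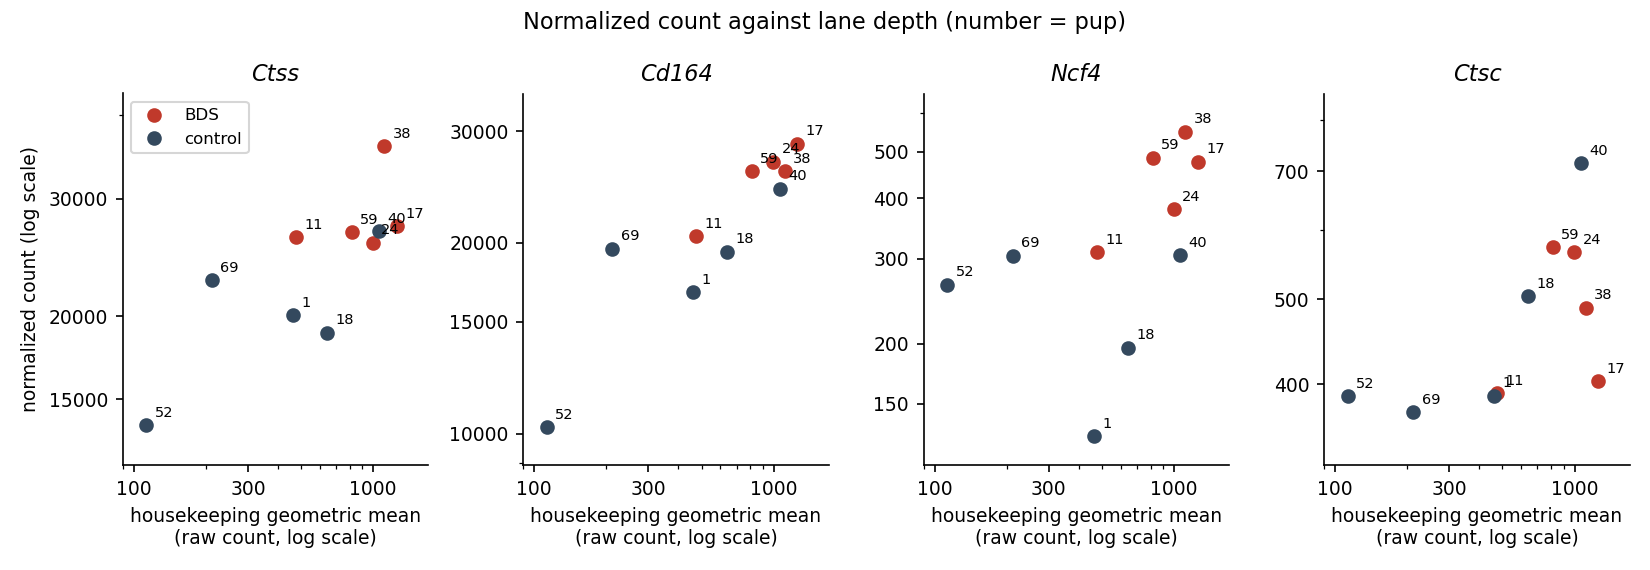
Normalized counts (y axis, log scale) of Ctss, Cd164, Ncf4 and Ctsc against lane depth, the geometric mean of 6 housekeeping genes in raw counts (x axis, log scale), for 5 BDS pups (red) and 5 control pups (dark blue), each point with its pup number. The mean on the x axis also scaled the counts on the y axis. Cd164 is lowest in the shallowest lane and highest in the deepest in this plot. For Ncf4 the control pups lie below the BDS pups at shared depths.

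Ratios of genes within a lane do not depend on how lanes are scaled. Cd164 gave 77.9%, 105%, 104%, 72.1% and 97.0% as many counts as Ctss in BDS pups 11, 17, 24, 38 and 59, against 83.4%, 102%, 90.7%, 74.7% and 86.5% in control pups 1, 18, 40, 52 and 69. The groups overlapped fully. The mean log2 ratio was nearly the same in both, at -0.15 ± 0.25 in BDS pups and -0.20 ± 0.17 in control pups (SD, n = 5 each). Normalized counts ranged 2.62-fold over the lanes for Ctss and 2.80-fold for Cd164. The raw counts of Ctss ranged 25.8-fold, but that range holds lane depth, which drops out of a ratio within a lane. Ctsc counts were 1.49%, 1.48%, 2.20%, 1.36% and 2.15% of Ctss counts in the same BDS pups, against 1.94%, 2.67%, 2.66%, 2.82% and 1.64% in the same control pups. The cathepsin ratio was lower in BDS pups by 0.44 on the log2 scale, with 3 control pups above every BDS pup and control 1 and 69 inside the BDS range.

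Ncf4 against Ctsc gave the widest separation of the ratios computed. This pair was not among those planned, and it sets the detected gene of largest fold change against that of smallest. Ncf4 counts were 79.3%, 118%, 67.3%, 112% and 84.7% of Ctsc counts in BDS pups 11, 17, 24, 38 and 59, against 33.1%, 38.9%, 42.7%, 68.4% and 81.8% in control pups 1, 18, 40, 52 and 69. The 3 deeper control pups lay below every BDS pup, and the shallow control pups 52 and 69 lay within the BDS range. In mean log2 ratio the BDS pups were at -0.15 ± 0.34 and the control pups at -1.004 ± 0.56 (SD, n = 5 each), a difference of 0.86. Ncf4 against Ctss differed by 0.42, with -6.03 ± 0.25 in BDS pups and -6.45 ± 0.58 in control pups, and control 52 had the highest ratio of all, 1.93%. That difference was 0.21 without control 1 and 0.61 without control 52. In control 52 Ncf4 had 52 raw counts where the negative probes averaged 11.1.

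**Figure D4:**
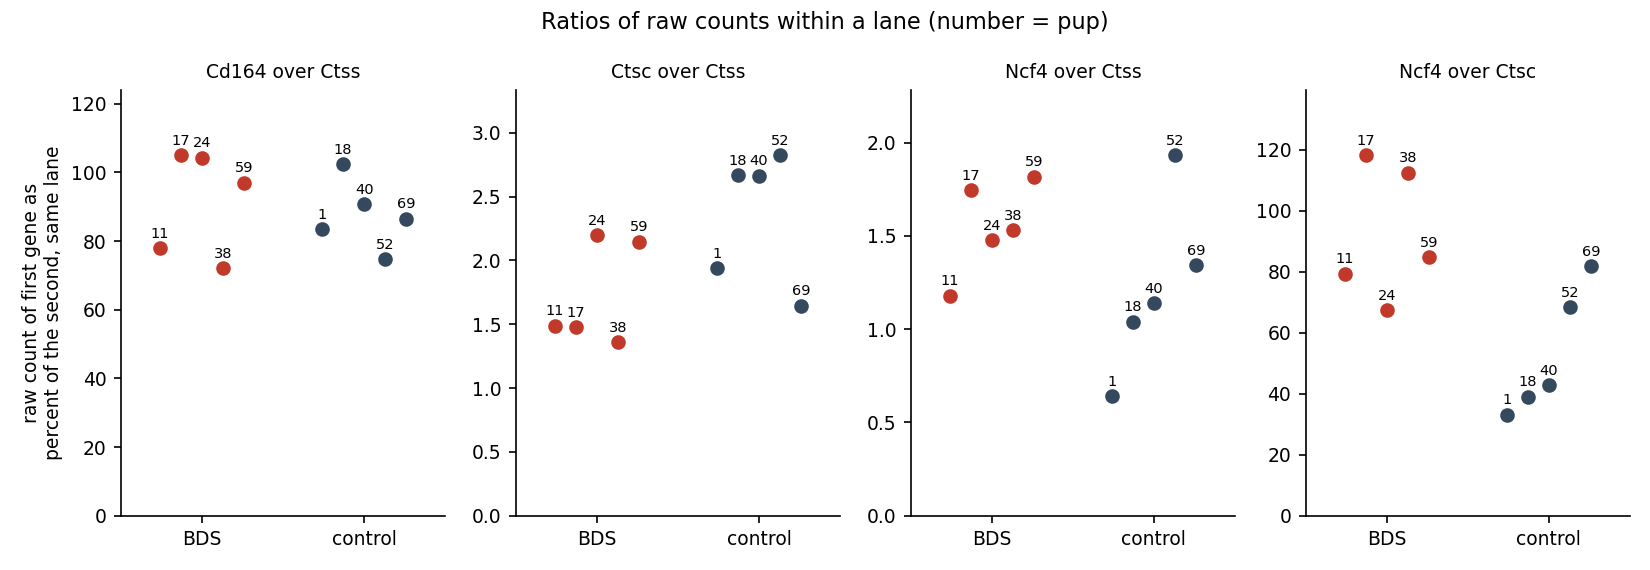
Raw counts of the first gene as a percent of the second in the same lane (y axis, from 0) for Cd164 over Ctss, Ctsc over Ctss, Ncf4 over Ctss and Ncf4 over Ctsc, in 5 BDS pups (red, left) and 5 control pups (dark blue, right), each point with its pup number. Cd164 over Ctss overlaps fully between 72.1% and 105%, and Ncf4 over Ctsc is 33.1% to 42.7% in control 1, 18 and 40 and at least 67.3% in every BDS pup.

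Cybb could not be told from background in any lane. Its raw counts were 6, 11, 15, 13 and 11 in BDS pups 11, 17, 24, 38 and 59, against 7, 6, 6, 4 and 6 in control pups 1, 18, 40, 52 and 69. Measured against the lane's limit, the highest value was 0.658 of it, in BDS 17. Its mean raw count was 11.2 ± 3.35 in BDS pups and 5.80 ± 1.10 in control pups (SD, n = 5 each), where negative probes averaged 10.03 in BDS lanes and 10 in control lanes. Cybb exceeded the mean of the negative probes in 4 of 5 BDS lanes and 1 of 5 control lanes, and in every lane at least 2 of the 8 negative probes read as high or higher. No fold change is given for it. The authors' deposited table lists Cybb as above background in 20% of lanes, with a BDS to control ratio of 0.56. Its highest scores there, 34 in control 52 and 25 in control 69, came from raw counts of 4 and 6 in the shallowest lanes.

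**Figure D5:**
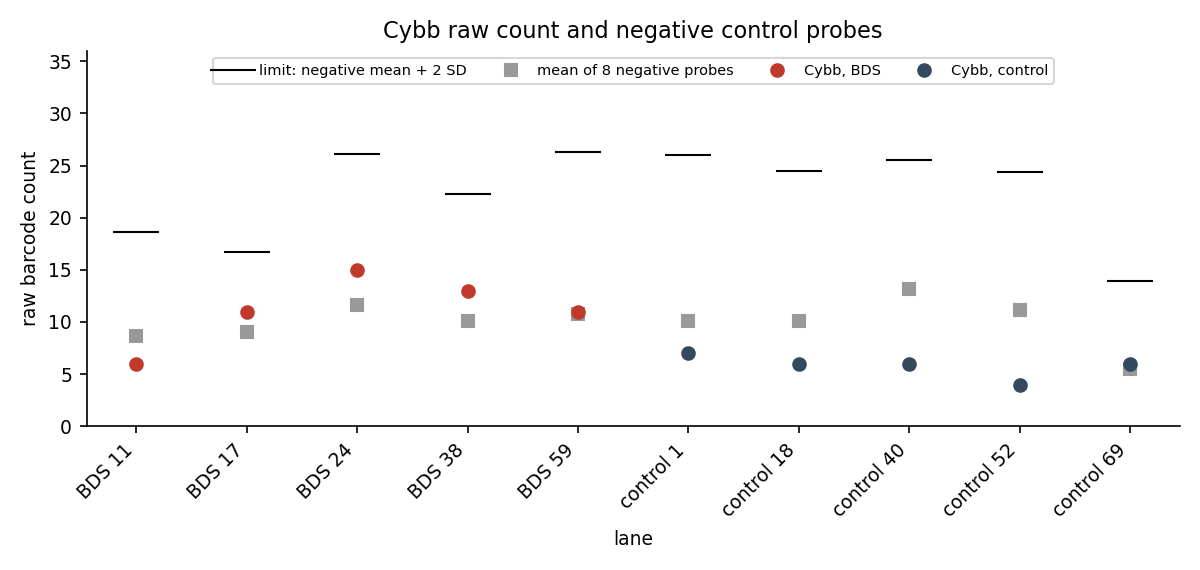
Raw barcode counts (y axis, from 0) in each of 10 lanes (x axis, BDS lanes left of control lanes) for Cybb (red in BDS, dark blue in control), the mean of 8 negative probes (grey squares) and the background limit, their mean plus 2 SD (black bars). Cybb lies between 4 and 15 counts and under the limit in all lanes.

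How alike genes behaved was measured as the SD over the 10 lanes of the log2 ratio of their raw counts, where a small SD means a steady proportion. Against the 282 other tested genes, the median SD was 0.54 for Ctss, 0.57 for Cd164, 0.55 for Ctsc and 0.68 for Ncf4. Closest to Ctss were Gpr183, an oxysterol receptor, with 0.14, the high-affinity IgG receptor gene Fcgr1 with 0.16, and the proteasome ATPase gene Psmc2 with 0.16. Closest to Cd164 were Fcgr1, the kinase gene Syk and Abcf1, all with 0.14. Cd164 ranked 6th among the neighbours of Ctss and Ctss 9th among those of Cd164, with an SD of 0.20. Ncf4 was closest to the caspase genes Casp2 (0.18) and Casp8 (0.19) and to Ikbkg, a subunit of the IKK complex (0.22). Lowest raw counts over the lanes were 28 for Casp2, 190 for Casp8 and 27 for Ikbkg, where the background limit of a lane reached 26.3. The part of background in these ratios was not tested. Ctsc had no neighbour as close: Ccr6 was at 0.24, the integrin gene Itga6 at 0.26 and the ubiquitin ligase gene Traf6 at 0.27, and Ctss ranked 47th for it. These SDs share the lanes, their depth and the split into groups.

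Other genes of the same processes were read from 5 lists, of which 12 genes besides the 5 above were tested. None of the 12 passed edgeR's adjusted p of 0.05 (4 had an unadjusted p under 0.05, as 28.3% of the 283 genes did; DESeq2 called 0 of them), 6 were higher and 6 lower, and their median log2 fold change was -0.07 beside 0.09 for all 283 genes. Cd74, 1 of the 6 higher, was above the limit in 5 BDS lanes and 1 control lane, so the filter favoured its direction. In the lysosome and endosome list, 4 of 5 other genes were tested, with 1 above 0 and 3 below (median -0.32). Npc1, the cholesterol exporter of lysosomes, had 3603 ± 303 normalized counts in BDS pups and 5101 ± 1344 in control pups, which gave -0.50 ± 0.20 on the log2 scale (edgeR adjusted p = 0.140). Atg16l1, part of the machinery that lipidates LC3 in autophagy, had 485 ± 64.7 in BDS pups and 339 ± 54.8 in control pups, with 0.51 ± 0.18 (edgeR adjusted p = 0.126). Irgm1, an interferon-induced GTPase of phagosomes, was at -0.65 ± 0.26 (edgeR adjusted p = 0.140), but at -0.38 without control 52 and at -0.13 with lane depth as a covariate. Litaf, an endosomal membrane protein, was at -0.13 ± 0.19. The granule protease gene Ctsg, the third cathepsin on the panel, was at background in every lane, with 3 to 17 raw counts.

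Of the oxidant genes besides Ncf4 and Cybb, Prkcd, a kinase that phosphorylates oxidase subunits, was the 1 tested of 4. It had 3167 ± 204 normalized counts in BDS pups and 2674 ± 332 in control pups, which gave 0.25 ± 0.16 on the log2 scale (edgeR adjusted p = 0.285). Nox1 and Nox4, which encode related catalytic subunits, were at background in all lanes, and Nos2, the inducible nitric oxide synthase gene, exceeded the limit in 2. On the class II path that cathepsin S serves, 4 of 9 genes were tested, 2 above 0 and 2 below (median -0.08). Cd74, 1 of the 2 above 0, met the filter through its BDS lanes, so the filter favoured its direction. The invariant chain gene Cd74 was above the limit in 5 BDS lanes and 1 control lane, with 21.3 to 119 normalized counts in BDS pups and 16.3 to 45.9 in control pups. Its log2 fold change of 1.10 ± 0.51 (edgeR adjusted p = 0.169) is therefore set against background and moved with how that was handled, at 2.21 after background subtraction, 0.67 with limma and 0.51 with the authors' scores. It was at 0.37 without BDS 17. H2-Ab1, a class II chain, was at -0.16 ± 0.20, the peptide-loading gene H2-DMa at 0.0034 ± 0.22 and its modulator H2-Ob at -0.27 ± 0.25. H2-Ab1 was at -0.0088 without control 1 and H2-Ob at -0.11 without BDS 17. In the list of granule proteases and cytotoxic genes read beside Ctsc, perforin (Prf1) was the 1 tested of 4 other genes. Perforin is not a serine protease, so no protease that cathepsin C activates was tested. Prf1 was above the limit in 5 BDS lanes and 3 control lanes. It was at 0.33 ± 0.35, and at 0.14 without BDS 17 and 0.15 without control 52. Gzmb was at background in every lane and Gzma in 8 of 10 lanes. Among sialomucin and partner genes for Cd164, Cd34 was at -0.42 ± 0.24 and Selplg at 0.39 ± 0.27, and Cxcr4, the chemokine receptor that Cd164 associates with, exceeded the limit in 2 lanes.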

How the data were processed

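Raw barcode counts per probe were deposited by the authors for 10 lanes, 1 per pup, with 8 negative and 6 positive control probes and 14 housekeeping genes; the counting software is not given in the sources used here. A second table deposited by the authors holds normalized counts, handled as a score since scaling and rounding leave no true counts, with group means, a fold (ratio of means), an unadjusted p-value and the percent of lanes above background, per the file headers. Per the series' design text they were scaled to positive controls and 5 housekeeping genes, of which 6 are named; the scores themselves follow the 5 without Sdha.

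Here the geometric mean of the 6 named genes set the scale of each lane, and a gene entered the test with raw counts over the negative mean plus 2 SD of the lane in at least 4 lanes (283 of 545). The main test was edgeR 4.0.16 (glmQLFTest on raw counts, no covariate, Benjamini-Hochberg over 283 genes) in R 4.3.3, and each SE is the estimate divided by the root of its F statistic. DESeq2 1.42.0 and limma 3.58.1 on log2 normalized counts (pseudocount 1; also on log2 of the deposited scores) were alternatives. The fit was checked on simulated data. These were made with the same lane scaling that the fit was given, so the check does not cover errors of scaling.

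The genes, the 5 lists and the rules were chosen with earlier results of these data known. The text names the 5 genes, the 3 tested genes of steadiest proportion to each, list genes and housekeeping genes. Cybb, at background, got no neighbours, and ratios planned with it were left out. The ratio of Ncf4 over Ctsc was not among the planned pairs. No lanes were alike within sampling noise (chi-square per degree of freedom at least 22.8 over all 45 pairs). Counts follow amplification without molecular identifiers. Some marker results are not reported here. Promoters are from RefSeq (GRCm38.p6). Other scalings, filters, background subtraction, a depth covariate and fits that leave out each pup were tried; the fit without control 52 and 69 and the settings for list genes were added after seeing the data.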

Additional observations from a re-analysis of the deposited data

Results flagged for a closer look

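In groups of 5 pups the gap of the highest or lowest pup to its neighbour was set against the group's range, on the log2 scale, in 32 groups (16 genes), and 3 exceeded the limit of 0.71; chance alone gives about 1 in 20. Ctss in BDS pups had a gap of 0.826 of the range, with BDS 38 at 35959 normalized counts and the other BDS pups between 25758 and 27302. The log2 fold change of Ctss was 0.38 without that pup. Npc1 in control pups had 0.746, with control 52 at 2820.3 and the other control pups between 5121 and 6275. Cd74 in control pups had 0.727, with control 52 at 45.9 and the others between 16.3 and 21.7. Control 52 was the shallowest lane, and its Cd74 value came from 9 raw counts, under its limit of 24.4.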

How the results depend on the processing

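The count of genes at an adjusted p of 0.05 was 0 in the fit as reported, 10 with only genes above the limit in all lanes, 12 without Gapdh in the scaling, 15 without Polr1b, 25 with DESeq2 and 34 with positive controls alone; leaving out 1 pup gave 0 to 48, the high end without control 40 and 19 without BDS 11. Scaling to positive controls alone also gave log2 fold changes of 1.54 for Ctss, 1.55 for Cd164, 2.10 for Ncf4 and 0.97 for Ctsc. Apart from that setting, Ctss, Cd164 and Ncf4 stayed above 0 under all alternatives run. They moved by less than 1 SD between pups, which is not the error of a group difference. With depth as a covariate, Ctss fell from 0.48 to 0.25 ± 0.19 and Cd164 from 0.50 to 0.17 ± 0.18 (SE). Leaving out 1 pup gave 0.36 to 0.59 for Ctss, 0.35 to 0.63 for Cd164 and 0.72 to 1.00 for Ncf4. Ctsc changed sign: -0.10 with TMM, -0.12 with median-of-ratios, -0.017 with total counts, -0.028 without Oaz1, -0.14 without Sdha, -0.12 with the authors' deposited scores, -0.040 after background subtraction, -0.23 with depth as a covariate, -0.15 without control 52 and 69, and -0.050 to 0.23 leaving out 1 pup. The difference in the Cd164 over Ctss ratio ran from -0.0050 to 0.13 leaving out 1 pup. The number of list genes passing was 0, but 1 (Cd74) with positive controls alone and up to 2 (Atg16l1 and Irgm1, without control 40). With positive controls alone, list genes turned positive: Npc1 0.59, Irgm1 0.91, Litaf 1.16, H2-Ab1 1.07, H2-Ob 0.80 and Cd34 0.51. H2-DMa turned to -0.11 with TMM, -0.12 with median-of-ratios, -0.029 with total counts, -0.050 without Oaz1, -0.19 without Sdha and -0.17 with the authors' scores, and ran from -0.090 to 0.10 leaving out 1 pup. Prf1 was at -0.26 with depth as a covariate. The cause of these changes was not tested. No paired analysis was possible because no pup number occurs in both groups. Of the 4 detected genes, shallow lanes limit Ncf4 and Ctsc most: control 52 held 52 and 76 raw counts of them. Polr1b, 1 of the 6 housekeeping genes in the scaling, had 6 there, under background. It was above the limit in 5 BDS lanes and 3 control lanes. Without Polr1b in the scaling the log2 fold changes were 0.56 for Ctss, 0.59 for Cd164, 0.98 for Ncf4 and 0.10 for Ctsc.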
